A study of Mus musculus with 6 samples.

Results

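Oxidative phosphorylation is the step of respiration in which electrons pass down the inner mitochondrial membrane and the proton gradient they build is used to make ATP. Electrons enter at complex I, the NADH dehydrogenase, or complex II, the succinate dehydrogenase, and are carried through complex III and cytochrome c to complex IV, the cytochrome c oxidase, while complex V, the ATP synthase, lets protons back in. Most subunits are encoded in the nucleus, and in skeletal muscle the fibres rich in mitochondria make more of them. Acetylation of histone H3 at lysine 27 (H3K27ac) marks active promoters and enhancers.

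The members were the H3K27ac peaks that the peak annotation named for a nuclear gene of these complexes, chosen by gene symbol with no measured value used. They numbered 155 of 46988 peaks in control mice and 135 of 40721 peaks in detrained mice. These peaks carried 75 gene names in each group and 76 in all, of which 74 occurred in both. Male wild type C57BL/6 mice (C57BL/6J in the study's methods) were either kept sedentary (control) or given a running wheel for 4 weeks from 8 weeks of age and harvested 72 hours after the last bout (detrained). Each group had 2 H3K27ac ChIP-seq libraries, each from a single quadriceps of 1 animal, and 1 input library, which is sheared chromatin without the antibody. The H3K27ac libraries held 20805019 to 22400894 tags, and the inputs 10812470 in control and 21298438 in detrained mice. The control pair is called C2 and C3 and the detrained pair Ex1 and Ex2, and values are always given in that order.

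A peak was described by its density, the tags per kb of called peak per 10000000 tags of the library, and by its tags per peak on the same scale of depth. Values below are densities unless tags per peak are named, and percentiles rank densities. The peak lists of the groups were called and normalized separately, so the groups were not tested against each other. With 2 libraries on each side, an exact permutation test could not go below a two-sided p of 0.333. A difference is therefore given only as whether both detrained libraries lay beyond both control libraries. Fewer fibres of a type and less acetylation per nucleus cannot be told apart in whole muscle.

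The tissue was checked at transcription start sites (TSSs) of marker genes. All 6 skeletal muscle markers (Acta1, Ckm and Mb, which are not particular to fast fibres, and the fast fibre genes Myh4, Tnnt3 and Actn3) had a TSS inside a peak in both groups, while none of the 3 slow fibre, 2 heart, 2 neuron and 3 fat markers did. Endothelial markers (3 of 3) and fibroblast markers (3 of 3) also had peaks, at percentiles of 14.8 to 22.5 and 16.3 to 21.97 among all control TSS peaks. Ranked by tags per peak they stood higher, at percentiles of 48.6 to 65.1 and 64.2 to 88.2. The 3 fibroblast markers were higher in both detrained libraries on both scales, as were 3.54% of all TSS peaks paired between the groups. Of the 6 skeletal muscle markers, 0 were higher and 0 lower on both scales, and Actn3 was lower per kb. Kdr, the 1 endothelial marker with paired peaks, overlapped on both scales. Both satellite cell markers had a TSS peak in both groups, at a median control percentile of 2.21. Pax7 was higher in both detrained libraries on both scales, while the groups overlapped for Myf5 on both. Of 3 immune markers, none had a TSS peak in control and 2 did in detrained mice. The peak over the Cd68 TSS was 5599 bp long and named for Mir1934. That over the Ptprc TSS stood at percentile 10.2 of detrained TSS peaks. The part of these other cells in the values given here was not tested.

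The name given to a peak follows the TSS nearest its centre, so it can pass a gene by. The TSSs of the genes were therefore also looked up directly. RefSeq held 88 protein-coding genes whose symbol matched, and Atp5s, listed there under a newer symbol, made 89. In 85 of the 89 genes a TSS lay inside a peak in control mice, and the same number held in detrained mice. Over all 21000 protein-coding genes 52.7% had one in control and 52.5% in detrained mice, against 95.5% of the subunit genes in both. The 85 genes used 85 distinct peaks in each group. Of these, 12 in each group carried another name, 11 of them the same genes in both groups. Among them were Cycs, which encodes cytochrome c, and Atp5a1, the alpha subunit of the ATP synthase. For Atp5mpl and Atp5md the other name was only an older symbol of the same gene.

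The 4 genes with no TSS in a peak were Cox6b2, Cox7b2, Cox8c and Ndufb4c. The first 3 are isoforms of complex IV subunits that are known for expression in testis. Their counterparts Cox6b1, Cox7b and Cox8a all had TSS peaks in both groups. These 4 genes were singled out after their values were seen.

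Promoter sequence is shown for 9 genes on which the results below turn. They are the pairs Cox7a1 and Cox7a2, and Cox8b and Cox8a, in which the first is the striated muscle isoform, and the pair Cox6b2 and Cox6b1, of which only the second had a TSS peak. Cycs, Sdhd and Atp5g3 are shown for motifs of mitochondrial gene regulators. Each line is the 250 bases just before the TSS, 5′ to 3′ on the strand of the gene, from RefSeq on GRCm38.p6. RefSeq lists more than 1 TSS for Cox6b2, and its line precedes the most upstream. Capitals mark any match, on either strand, to the motifs listed after the sequences. The muscle isoforms lay at chr7:30183921-30184170 (plus strand) for Cox7a1 and chr7:140900447-140900696 (minus strand) for Cox8b, and their partners at chr9:79759854-79760103 (minus strand) for Cox7a2 and chr19:7217617-7217866 (minus strand) for Cox8a.
Cox7a1: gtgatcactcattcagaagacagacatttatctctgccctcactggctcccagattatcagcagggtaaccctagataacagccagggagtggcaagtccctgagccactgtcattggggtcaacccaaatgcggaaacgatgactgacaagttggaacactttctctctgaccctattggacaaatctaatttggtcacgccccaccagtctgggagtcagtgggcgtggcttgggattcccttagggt
Cox7a2: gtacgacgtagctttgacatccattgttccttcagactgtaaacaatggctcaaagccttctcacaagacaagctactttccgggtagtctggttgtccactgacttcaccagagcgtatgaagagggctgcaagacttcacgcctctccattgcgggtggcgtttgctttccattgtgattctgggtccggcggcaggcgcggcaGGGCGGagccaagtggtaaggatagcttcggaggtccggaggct
Cox8b: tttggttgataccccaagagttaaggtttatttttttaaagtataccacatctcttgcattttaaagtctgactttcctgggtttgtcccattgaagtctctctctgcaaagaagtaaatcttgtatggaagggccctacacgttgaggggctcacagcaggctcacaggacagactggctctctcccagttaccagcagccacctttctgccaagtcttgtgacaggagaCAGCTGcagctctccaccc
Cox8a: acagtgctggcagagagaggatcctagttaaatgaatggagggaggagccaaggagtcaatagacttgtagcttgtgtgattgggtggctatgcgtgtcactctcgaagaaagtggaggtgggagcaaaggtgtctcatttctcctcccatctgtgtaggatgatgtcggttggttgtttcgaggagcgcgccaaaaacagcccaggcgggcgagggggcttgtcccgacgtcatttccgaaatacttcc
The stretch before Cox7a1 held 4 CpG dinucleotides and that before Cox7a2 held 14. Cox8b had 1 and Cox8a had 11. The muscle isoform thus had fewer in both pairs.

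The other 5 stretches were chr7:4753095-4753344 (minus strand) for Cox6b2, chr7:30626115-30626364 (minus strand) for Cox6b1, chr6:50566570-50566819 (minus strand) for Cycs, chr9:50603850-50604099 (minus strand) for Sdhd and chr2:73911327-73911576 (minus strand) for Atp5g3.
Cox6b2: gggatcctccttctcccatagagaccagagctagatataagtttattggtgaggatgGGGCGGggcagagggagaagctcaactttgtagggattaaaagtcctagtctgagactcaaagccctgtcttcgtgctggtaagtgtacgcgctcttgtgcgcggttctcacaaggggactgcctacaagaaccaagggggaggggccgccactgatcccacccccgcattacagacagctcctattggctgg
Cox6b1: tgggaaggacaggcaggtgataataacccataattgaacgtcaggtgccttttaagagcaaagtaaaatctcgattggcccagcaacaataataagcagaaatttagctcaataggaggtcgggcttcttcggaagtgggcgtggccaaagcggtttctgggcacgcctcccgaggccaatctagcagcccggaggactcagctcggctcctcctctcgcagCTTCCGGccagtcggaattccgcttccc
Cycs: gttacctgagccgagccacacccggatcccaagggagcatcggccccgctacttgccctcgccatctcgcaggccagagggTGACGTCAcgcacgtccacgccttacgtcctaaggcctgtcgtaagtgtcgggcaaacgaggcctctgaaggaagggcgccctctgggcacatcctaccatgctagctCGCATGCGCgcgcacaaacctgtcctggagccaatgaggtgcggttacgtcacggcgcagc
Sdhd: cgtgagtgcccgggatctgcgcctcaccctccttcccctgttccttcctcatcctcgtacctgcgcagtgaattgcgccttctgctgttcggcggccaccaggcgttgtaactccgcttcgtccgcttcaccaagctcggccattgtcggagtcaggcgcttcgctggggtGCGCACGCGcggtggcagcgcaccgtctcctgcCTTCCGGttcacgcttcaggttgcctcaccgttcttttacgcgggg
Atp5g3: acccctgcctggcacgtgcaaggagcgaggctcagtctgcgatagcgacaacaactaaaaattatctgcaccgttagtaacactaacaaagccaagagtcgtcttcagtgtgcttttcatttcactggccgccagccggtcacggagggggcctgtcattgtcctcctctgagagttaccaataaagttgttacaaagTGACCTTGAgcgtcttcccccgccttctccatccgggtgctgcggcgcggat
Capitals mark TGACGTCA, the site of CREB (called CRE), and GCGCANGCG, the site of nuclear respiratory factor 1 (NRF1), in Cycs. In Sdhd, a membrane anchor of complex II, they mark the NRF1 site and CCGGAAG, the site of GABPA, and in Cox6b1 the GABPA site. In Atp5g3, which encodes a c-ring subunit of the ATP synthase, they mark TNAAGGTCA, the element of the estrogen-related receptors (ERR). GGGCGG (SP1) is marked in Cox7a2 and Cox6b2, and CAGCTG (E-box) in Cox8b.

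Motifs were counted on both strands in the 300 bases from 250 before to 50 after the TSS, for 71 subunit genes and for 16853 protein-coding genes in the same reference. Matches of different motifs could overlap. NRF1 sites occurred in 21 of the 71 genes (29.6%), against 9.97% of all promoters and 16.4% of the 8388 promoters whose TSS lay in a peak in both groups. AANATGGC, the site of YY1, occurred in 17 (23.9%), against 7.59% and 10.7%. The GABPA site also occurred in 17, against 13.3% and 21.4%. CRE was found in 5 (7.04%), against 2.62% and 3.79%, and the ERR element in 3 (4.23%), against 1.199% and 0.835%. The 3 genes with an ERR element were Atp5g3, Ndufb4 and Sdhd, the match in Sdhd lying outside the bases printed above. SP1 sites were in 30 (42.3%), against 50.7% and 71.0%, and the E-box in 6 (8.45%), against 17.7% and 18.4%. The longer MEF2 motif was in 0 of the 71, against 1.99% and 1.78%. These shares are descriptions of letters in a window, and no test was made. Median GC content was 58.3% in the subunit promoters and 61.3% in the acetylated promoters of all genes.

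Subunit genes had dense start sites. The median density of the 85 TSS peaks was 87.9 and 92.6 in the control pair and 97.8 and 89.7 in the detrained pair, against 62.3, 63.0, 63.5 and 59.04 over all protein-coding genes with a TSS peak. All 4 libraries thus gave a higher median for the subunit genes, at a similar median peak length (2165 bp against 2122 bp in control). Ranked among all TSS peaks by density, the median subunit gene stood at percentile 82.5 in control and 85.1 in detrained mice. Of the 85 genes, 75 in control and 78 in detrained mice were in the upper part of the ranking, above percentile 50, and 27 and 31 were above percentile 90. Ranked by tags per peak the medians were lower, at percentiles 68.3 and 67.9.

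**Figure D1:**
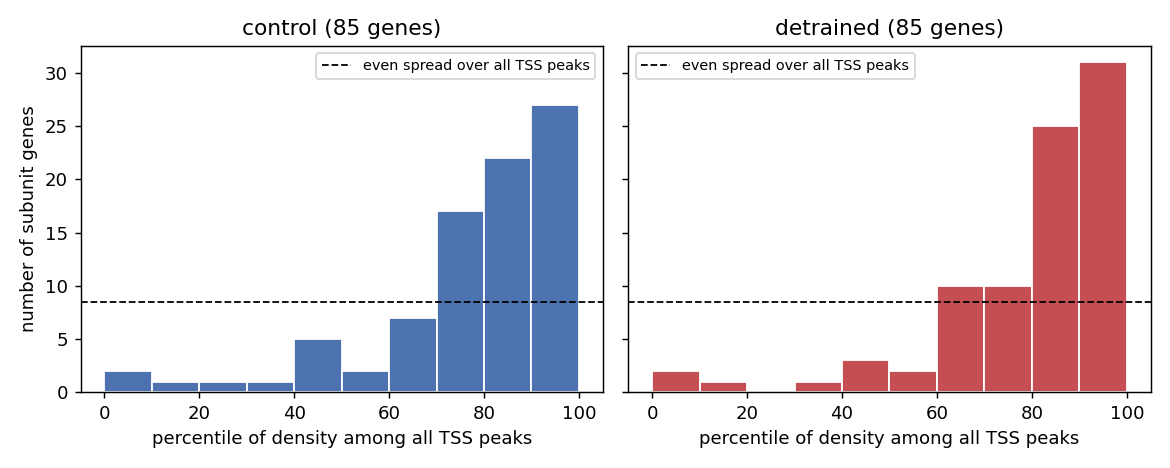
Number of subunit genes (y axis) in each bin of 10 percentiles of the density ranking of all TSS peaks (x axis, percentile), for control (left) and detrained (right) mice, 85 genes each. The dashed line is an even spread; the tallest bar in both groups is that above percentile 90, with 27 and 31 genes.

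In complex I, 38 of 39 genes had a TSS peak, and medians ran from 84.3 in Ex2 to 89.8 in Ex1. Among its core subunits, Ndufs1, the large iron-sulfur protein of the NADH arm, was the densest promoter of the complex in control mice, at 142.0 and 151.1 in the control pair and 141.9 and 127.4 in the detrained pair. It was among the densest 1% of control TSS peaks, at percentile 99.1. Ndufs3 and Ndufv2, also of the electron-carrying arms, had control means of 103 ± 2.2 and 117 ± 13.5 (SD, n = 2). Ndufs7, Ndufs8 and Ndufv1 were lower, with control means of 71.3 ± 10.6, 59.7 ± 2.3 and 76.3 ± 6.3 (SD, n = 2). The core subunits named here thus spread over a wide range of the ranking, from percentile 48.6 for Ndufs8 to 99.1.

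At the low end stood Ndufa4l2, a hypoxia-linked relative of Ndufa4, with 27.4 and 29.9 in the control pair and 26.7 and 24.2 in the detrained pair. Ndufa4, whose protein is found with complex IV despite its name, had 111.8, 126.4, 133.5 and 123.5. Ndufa4 was the higher in all 4 libraries, over the shorter peak, 2342 bp against 4085 bp in control.

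The 3 members on the X chromosome were Ndufa1 and Ndufb11 of complex I and Cox7b of complex IV, and male mice carry a single X. Ndufa1 had 33.1 and 36.0 in the control pair and 32.4 and 28.6 in the detrained pair. Ndufb11 had 54.5 and 56.1 in control and 61.9 and 58.3 in detrained mice. In the order given, the 3 genes stood at percentiles 15.7, 42.7 and 47.6 in control mice, below the subunit median. Over the 337 X-linked genes with a TSS peak in control mice, the median percentile was 18.05. X-linked genes as a whole thus ranked low, and the part of this in the level of these 3 genes was not tested.

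All 4 genes of complex II had a TSS peak. Sdha, the flavoprotein, had 105.2 and 119.8 in the control pair and 116.5 and 113.2 in the detrained pair. Sdhb, the iron-sulfur subunit, had 72.6, 85.3, 87.5 and 84.4 over a peak of 8191 bp in control, the longest in the complex. All 9 genes of complex III had a TSS peak above percentile 50 in both groups. Cyc1, cytochrome c1, had control and detrained means of 91.1 ± 4.5 and 94.2 ± 6.3, and Uqcrfs1, the Rieske protein, 97.3 ± 12.4 and 92.3 ± 2.3 (SD, n = 2). Uqcr10, a small accessory subunit, had the densest control promoter of the complex, with 108.5 and 131.1 in control and 96.7 and 89.7 in detrained mice, where its peak was called longer (1778 bp to 2460 bp). The groups overlapped for Cyc1 and Uqcrfs1 and did not for Uqcr10, whose tags per peak had a log2 ratio of 0.11 in the other direction.

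Cytochrome c itself had one of the densest start sites. The peak over the Cycs TSS had 136.2 and 151.0 in the control pair and 144.5 and 138.1 in the detrained pair, at percentile 98.9 in control mice. Its groups overlapped per kb. Its tags per peak were 350.3 and 388.6 in control and 337.9 and 323.1 in detrained mice, with both detrained values below both control values.

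In the ATP synthase, all 18 genes had a TSS peak and its median percentile was 90.6 in control and 91.7 in detrained mice. Atp5b, the catalytic beta subunit, had 120.1 and 139.9 in the control pair and 145.6 and 132.6 in the detrained pair. Atp5a1 had 109, 128, 140.2 and 130.1. Of the 3 genes of the c-ring, which encode the same mature protein, Atp5g3 was highest, with a control mean of 141 ± 9.0, followed by Atp5g2 at 122 ± 5.1 and Atp5g1 at 77.5 ± 3.6 (SD, n = 2). The order per kb was the same in every library, and no 2 of these genes overlapped in control mice. By tags per peak Atp5g2 was above Atp5g3 in every library, with 517.7, 549.4, 542.2 and 486.3 against 342.2, 374.5, 365.7 and 344.1, over a longer peak (4384 bp against 2545 bp in control). Atp5c1, the gamma subunit of the central stalk, had 116.5 and 129.0 in the control pair and 119.9 and 117.6 in the detrained pair. The TSS of Atp5j, coupling factor 6, lay in a peak of 6517 bp in control mice that also covered the TSS of Gabpa, which encodes the GABPA factor itself.

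**Figure D2:**
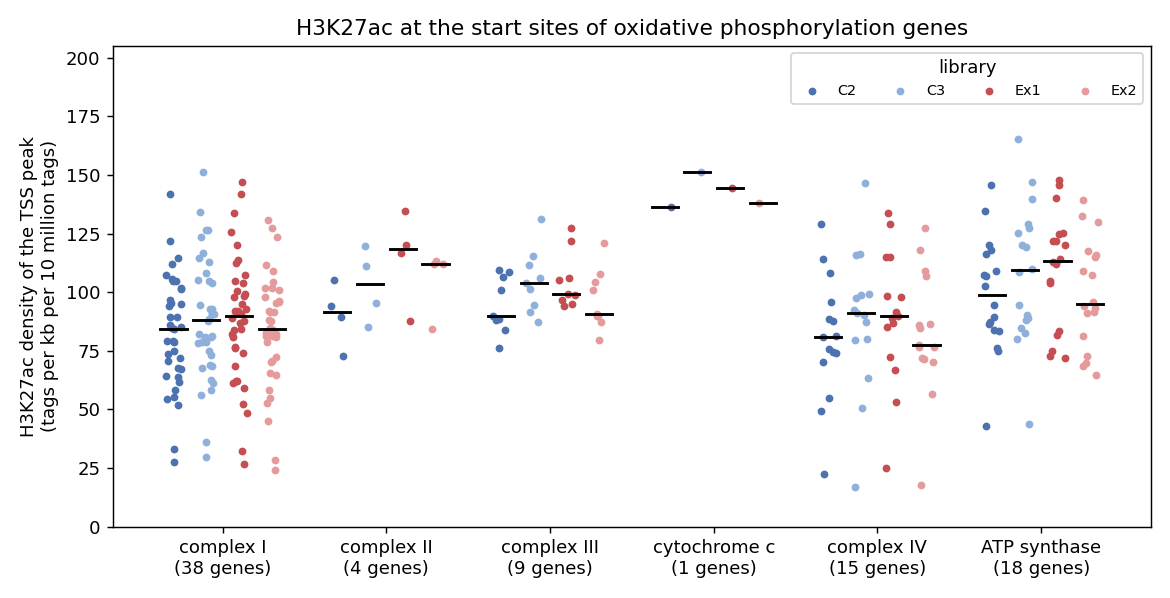
Density of the peak over the TSS (y axis, tags per kb per 10000000 tags) for each subunit gene (points) by complex (x axis) and library (colours), with the median as a black bar. Cycs and most ATP synthase genes sit high, with Atp5k at 43.1 in C2 as an exception, and complex I spans 27.4 to 142.0 in C2.

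Complex IV held the genes that come as tissue isoforms. Cox4i1, the common form of subunit 4, had 87.7 and 98.9 in the control pair and 97.8 and 86.5 in the detrained pair. Cox4i2, known from lung and low oxygen, had 22.6, 17.1, 24.8 and 17.7, the lowest TSS peak among the 85 genes in every library. The 2 genes did not overlap.

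Subunits 6a, 7a and 8 have a striated muscle form beside the common form. Cox6a2, the muscle form, had 74.6 and 92.3 in the control pair and 67.0 and 72.0 in the detrained pair, and its partner Cox6a1 had 75.8, 79.6, 98.2 and 84.6. These 2 overlapped in control mice, and Cox6a1 was the higher per kb in both detrained libraries. By tags per peak Cox6a2 was the higher in all 4 libraries, with 188.5, 233.3, 200.5 and 215.6 against 146.4, 153.8, 148.1 and 127.5. Cox7a2l, a supercomplex factor related to Cox7a2, had 95.7 and 99.4 in control and 89.9 and 77.3 in detrained mice. Cox8b, the muscle form, had 70.2, 80.2, 86.7 and 76.6, and Cox8a had 81.4, 90.2, 115.1 and 118.0, so that Cox8a was the denser in all 4 libraries. By tags per peak the order was the other way, with 425.7, 486.6, 389.5 and 344.0 over Cox8b against 195.2, 216.3, 192.6 and 197.5 over Cox8a, with a Cox8b peak of 6067 bp and a Cox8a peak of 2399 bp in control mice. The muscle form thus had the wider acetylated region rather than the denser one.

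The 7a pair differed between the groups in opposite directions per kb. Cox7a1, the muscle form, at chr7:30181397-30185906 in control mice, had 49.4 in C2 and 50.6 in C3 against 72.4 in Ex1 and 70.0 in Ex2. Cox7a2, at chr9:79758835-79760448, had 114.2 and 116.5 against 85.0 and 71.3. In neither gene did the groups overlap. The called peak over Cox7a1 went from 4509 bp to 2663 bp and that over Cox7a2 from 1613 bp to 2522 bp. The tags per peak were 222.6 and 228.1 against 192.8 and 186.5 for Cox7a1, now lower in both detrained libraries. For Cox7a2 they were 184.3 and 187.8 against 214.5 and 179.8, with overlap. The direction of both genes thus turned or was lost with the scale.

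**Figure D3:**
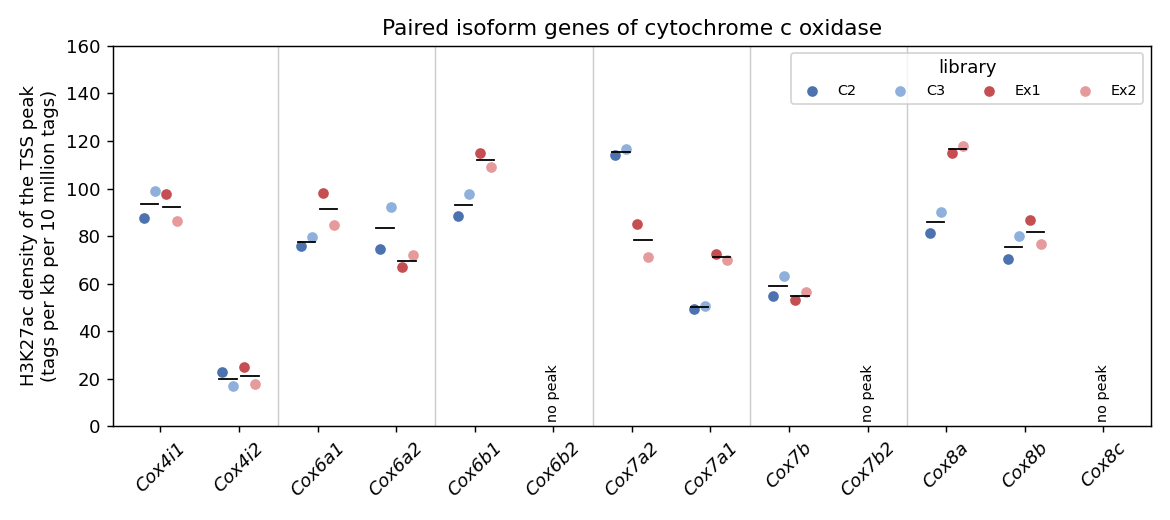
Density of the TSS peak (y axis, tags per kb per 10000000 tags) of complex IV genes that exist as isoforms (x axis, grouped by subunit), 1 point per library, with group means as bars. Cox4i2 sits below 25 in all libraries, Cox7a1 and Cox7a2 approach each other in detrained mice, and Cox6b2, Cox7b2 and Cox8c had no TSS peak.

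Between the groups, differences per kb ran opposite to differences in called peak length. Shared peaks are 1:1 pairs in which the overlap took up 50% or more of each peak. Of 26432 such peaks, 107 were named for a subunit gene in at least 1 group, 105 of them in both. None of the 107 differed 2-fold per kb, as did 20 of all. Both detrained libraries lay above both control libraries in 30 of the 107, against 21.3% of all shared peaks, and below in 27, against 27.2%. The split depended on scaling and on single libraries, with 46 above and 22 below when libraries were scaled to the tags in listed peaks, against 27.8% and 22% of all shared peaks on that scaling. It was 41 and 24 when centred on the median of all shared peaks, against 25.3% and 24.9%. Counted by tags per peak, 14 lay above and 24 below, against 24.7% and 28.8% of all shared peaks. Without C3, 56 lay above and 30 below, against 38.7% and 36.9%, and without C2, 35 and 46, against 30.5% and 45.5%. Without Ex1, 35 lay above and 39 below, against 28.8% and 43.4%, and without Ex2, 53 and 34, against 37.2% and 35.9%. On both scales at once, per kb and per peak, 4 lay above and 7 below, against 6.37% and 9.6%. The 107 had a median log2 ratio, detrained over control, of 0.03 per kb and -0.02 per peak, and all shared peaks -0.03 and -0.02.

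In 30 of the shared peaks the annotation was a promoter in both groups, and 29 genes had a peak so annotated in both. Of the 30, 9 lay above and 7 below per kb, against 23% and 30.3% of all shared promoter peaks. The median log2 ratio of the 30 per kb was 0.07, against -0.03 over all shared promoter peaks. The value of 0.07 was below the SD of 0.083 between the libraries of a group in this median. The median of the 30 was 0.12, above that SD, when scaled to the tags in listed peaks and 0.09 when centred. The median of all shared peaks was then 0.02 and 0.0011. Per peak the median of the 30 was -0.03, against -0.05 over all shared promoter peaks. Per kb it was -0.01 when C2 or Ex1 was left out. C3 exceeded C2 in 75 of the 85 TSS peaks, and Ex1 exceeded Ex2 in 71. Over all protein-coding genes with a TSS peak, C3 exceeded C2 in 6276 of 11069 and Ex1 exceeded Ex2 in 8536 of 11029.

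At the TSS, 81 genes had a shared peak. Both detrained libraries lay above both control libraries in 27 of them per kb, against 22.6% of all shared TSS peaks, and below in 18, against 30.5%. Counted per peak, 3 lay above (Atp5d, Atp5l and Uqcrc2), against 15.9% of all shared TSS peaks, and 18 below, against 29.6%. Among the 18 were Cycs, Cox5a, Cox7a1, Cox8b, Atp5a1 and Sdhd. No gene lay above on both scales, against 3.54% of all shared TSS peaks, and 2 lay below on both, against 9.84%. The log2 ratio per kb ran against the log2 ratio of peak length, with Pearson's r = -0.93 over the 71 shared member peaks that covered a TSS, a description across peaks that share libraries and whose density holds the length as its divisor. The same r was -0.75 over all 9136 shared TSS peaks.

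The 2 genes lower on both scales were Ndufv3 and Ndufb6, accessory subunits of complex I, named because of this result. Ndufv3 had 78.8 in C2 and 78.3 in C3 against 52.3 in Ex1 and 54.7 in Ex2, with 135.4 and 134.6 against 120.1 and 125.4 tags per peak. Ndufb6 had 96.8 and 108.0 against 90.8 and 82.2, with 180.1 and 200.8 against 167.1 and 151.3 tags per peak. The differences per peak were small, at log2 ratios of -0.14 and -0.26.

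**Figure D4:**
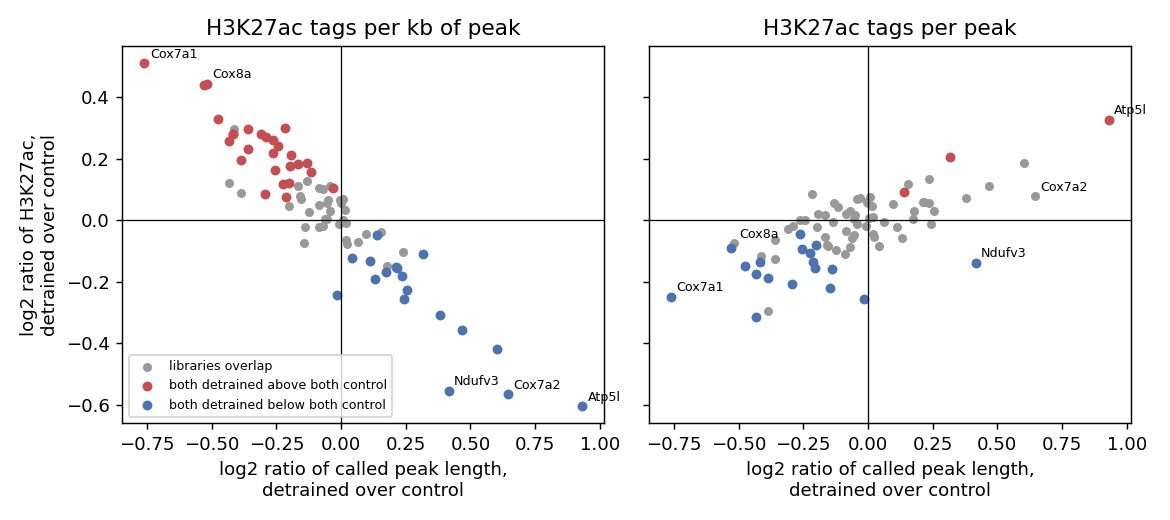
Log2 ratio of H3K27ac, detrained over control (y axis), against log2 ratio of called peak length (x axis) for the TSS peaks of 81 subunit genes, per kb (left) and per peak (right). Red and blue points are genes whose libraries did not overlap; per kb they line up against length, and per peak only 3 are red.

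Atp5l, subunit g of the ATP synthase, showed the largest decrease among shared member peaks per kb. It had 145.6 in C2 and 165.3 in C3 against 114.2 in Ex1 and 91.2 in Ex2, and its called peak grew from 2444 bp to 4661 bp. Its tags per peak were higher in both detrained libraries, at 355.9 and 404.1 against 532.1 and 425.0. The direction was opposite on the 2 scales. Among the 4 TSS peaks that were not shared were those of Atp5k, Ndufb10 and Ndufs6, whose called lengths differed more than 50% cover allows. The Atp5k peak, over subunit e of the ATP synthase, went from 4666 bp to 1433 bp, with 43.1 and 43.8 against 71.9 and 69.9, while its pooled tags per 10000000 went the other way, from 202.5 to 101.3. The Ndufs6 peak was 1758 bp and 3912 bp, with 104.8 and 94.5 against 48.3 and 45.2, and its pooled tags per 10000000 were 175.1 and 182.6. The Ndufb10 start site lay in a peak of 2148 bp in control mice and in one of 15082 bp named for Rpl3l in detrained mice, so the name Ndufb10 occurred in control mice only. The Ndufa1 name occurred only in detrained mice, and its TSS peak was named for Rnf113a1 in control mice.

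Away from start sites, the peaks named for these genes were weaker. The 36 shared member peaks that covered no TSS had medians of 33.9 and 36.6 in the control pair and 33.5 and 36.1 in the detrained pair, close to 30.6, 32.4, 31.4 and 30.7 over all shared peaks that covered none. The 71 that covered a TSS had medians of 87.7, 92.3, 96.7 and 89.7. The name of such a peak gives the nearest TSS and says nothing of the gene it acts on. Of the 36, 4 lay above and 5 below on both scales, against 7.87% and 9.48% of all shared peaks that covered no TSS.

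The largest increase among all shared member peaks was in an intron 3939 bp from the TSS of Ndufa7, at chr17:33827127-33830042. It had 14.8 in C2 and 18.03 in C3 against 29.6 in Ex1 and 26.6 in Ex2, and lay above on both scales, with log2 ratios of 0.78 per kb and 0.45 per peak. Weak peaks near Ndufb5 and Ndufv1 were next, with log2 ratios of 0.69 and 0.64 per kb, and had -0.21 and 0.01 per peak. Both had been called shorter in detrained mice. Among the decreases, a peak annotated to a 3′ UTR, its centre at -8844 bp from the Cox8a TSS, had 30.0 and 34.1 against 22.7 and 19.95, with log2 ratios of -0.59 per kb and -1.31 per peak. A peak 15210 bp from the Atp5l TSS had -0.56 per kb and 0.29 per peak.

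Cox6c had the most peaks in control mice, 13, of which 1 lay 137992 bp from its TSS, and 6 in detrained mice. Atp5o had 8 in each group, the most in detrained mice. In control mice 25 member peaks overlapped no detrained peak, 16.1% against 27.9% of all control peaks, and in detrained mice 8 overlapped no control peak, 5.93% against 17.96%. None of these covered a TSS. The peaks without overlap were weak, with a median of 14.9 pooled tags per 10000000 in control mice against 172.9 for the shared member peaks. Both lists were called against inputs of unlike depth, and the part of this in the counts was not tested.

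**Figure D5:**
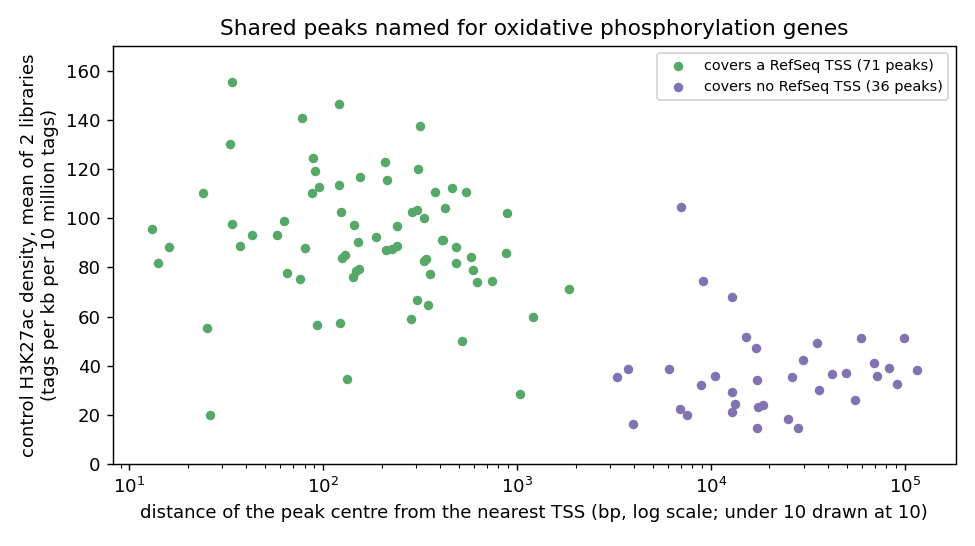
Control density (y axis, mean of C2 and C3) against the distance of the peak centre from the nearest TSS (x axis, log scale) for the 107 shared member peaks. The 71 peaks over a TSS sit mostly above 60, and the 36 others mostly below 50.

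Genes that build the complexes or regulate them were read beside the subunits. Of 51 other genes of oxidative phosphorylation, 47 had a TSS peak in control and 50 in detrained mice. Their median percentile was 65.3 in both groups, lower than the subunit median of 82.5. Most of the 51 are assembly factors, but the list also held Atpif1 and Ndufab1, a complex I subunit that the symbol rule passed by. Of the 45 with a shared TSS peak, 2 lay above and 4 below on both scales, near the shares of 3.54% and 9.84% over all shared TSS peaks. Ecsit, a complex I assembly factor, had the lowest ratio per kb, -0.86, with -0.04 per peak. All 16 regulators had a TSS peak in both groups, at median percentiles of 82.3 and 77.6. Ppargc1a, which encodes the coactivator PGC-1 alpha, had 64.2 and 82.8 in the control pair and 68.1 and 70.5 in the detrained pair, with overlap per kb, and lay above per peak only. Nrf1 had 140.2 and 143.8 against 138.5 and 123.5 and lay below on both scales. Esrrg had 37.7 and 39.6 against 51.7 and 46.2, and Esrrb 23.4 and 27.6 against 35.5 and 33.8. Both receptors lay above on both scales. The Esrrb peak was weak in control mice, at percentile 6.98, and was called longer in detrained mice (1147 bp to 2010 bp). The third gene of this family, Esrra, had 100.7 and 109.7 against 75.2 and 68.4 and lay below per kb, with overlap per peak (log2 ratios of -0.55 and 0.09) and a peak called longer in detrained mice. Of the 14 regulators with a shared TSS peak, 2 lay above and 1 below on both scales.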

How the data were processed

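H3K27ac ChIP-seq peaks of quadriceps from 2 control and 2 detrained mice were used. Per the labels and the study's methods, reads were aligned by the authors with Bowtie (mm10, version 1.2 in the submitters' processing notes), who called 1 HOMER peak list per group against its input. The deposited pooled signal is the tags of both libraries per 10000000. The deposited log2 values per library were normalized to total tags within a table and regularized, which pulls weak peaks together. Columns in which the authors compare each peak with the input (a fold, a p-value and its adjusted form) were not used. Pooled tags were shared between libraries by total tags and log2 value, with 0.5 tags added, so differences between libraries of weak peaks are understated. TSSs and promoter sequences came from RefSeq (GRCm38.p6, the build mm10). Promoter windows were found for 71 subunit genes. Peaks of the groups were paired where 50% of each was covered.

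Genes named were the complex IV isoforms, catalytic and c-ring subunits, the 5 densest and 3 least dense promoter peaks, the 4 largest changes in each direction, genes with peaks in 1 table only, and the gene with the most peaks. Atp5k, Ndufs6, Ndufb6, Ndufv3, Ecsit, the genes without a TSS peak, the X-linked genes and those listed as above or below per peak were singled out after their values were seen. The members and lists were chosen with earlier results of these data known. The values of 1 gene under this rule are not reported here. No test between groups was made. Alternatives covered peak length, overlap, pseudocount, scaling, stricter peaks, promoter definition and single libraries left out in turn. Simulated data were used to test the code. Python 3.11.15, numpy 2.4.6, pandas 2.3.3 and matplotlib 3.10.9 were used.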

Additional observations from a re-analysis of the deposited data

How the results depend on the processing

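The control and detrained libraries came from different mice, so there was no pairing to use. No test compares the groups, and the columns C2 and C3 match no numbered label. The promoter median log2 ratio of 0.07 turned to -0.0329 with tags per peak and, over the TSS peaks of 81 genes, was 0.06 per kb and -0.0208 per peak, an alternative chosen after seeing the data. Leaving out 1 library gave -0.01 to 0.14, with -0.0063 without C2 and -0.0061 without Ex1. The 30 shared peaks above in both detrained libraries became 14 with tags per peak (24.7% of all) and 46 scaled to the tags in listed peaks (27.8%). They became 13 of 65 with at least 80% of each peak covered (16.5% of all such pairs) and 9 of 30 with promoter peaks only (23% of all). Required on both scales, a rule added after seeing the data, they became 4 (6.37% of all). Leaving out 1 library gave 35 to 56, with 56 without C3 (38.7% of all) and 53 without Ex2 (37.2%). The 27 below became 12 of 65 with 80% covered (23.7% of all), 7 of 30 with promoter peaks only (30.3% of all) and 7 on both scales (9.6% of all). Without 1 library they were 30 to 46, with 46 without C2 (45.5% of all). Stricter cover and promoter peaks alone leave fewer peaks to count, and 1 library against 2 has fewer values to overlap. For the other settings the cause was not tested. The 29 genes with a promoter peak in both groups became 16 with the peak centre from 1000 bp before to 100 bp after the TSS and 85 when the peak had to cover the TSS under any name. Scaling to the tags in listed peaks gave a median of 0.1167 and centring 0.0935, both above the SD between libraries of 0.0829, though neither moved by as much as that SD. Overlap of any length, stricter peaks and centring kept the counts above and below within 1.5 times, and a pseudocount of 5, run for the median only, gave 0.0672. Regularized values, and tags per library that were only estimated, limit all weak peaks.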
